A study of Homo sapiens with 9 samples.

Results

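The promoters of 9 genes whose products unwind or bind G-quadruplex DNA were examined for CUT&Tag peaks of the chromatin protein BAZ2B: DHX36, DHX9, DDX5, BLM, WRN, BRIP1, RTEL1, PIF1 and ATRX. The genes were chosen for their function, with earlier results of these data known. A peak was taken as theirs when its nearest edge lay within 2 kb of 1 given transcription start site (TSS) per gene on the human build hg19. Under this rule 18 of the 27108 deposited peaks belonged to the 9 promoters, 9 of them in the H3K4me3 list, 6 in the anti-HA list of tagged cells and 3 in the anti-HA list of untagged cells. The cells were A549, a human lung adenocarcinoma line with epithelial features, in 3 groups of 3 libraries. The first group carried an HA epitope inserted at the 5′ end of the cells' own BAZ2B gene and was profiled with an antibody to HA (called HA-BAZ2B here). Untagged wild-type cells (WT) received the same antibody and serve as its background. The third group was the tagged line profiled for H3K4me3, a histone mark of active promoters. The labels do not say whether the tagged line is 1 clone, and lung or epithelial marker genes were not examined.

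G-quadruplexes are folds of guanine-rich DNA or RNA in which guanines pair in stacked planar tetrads. They form in promoters, telomeres and other G-rich stretches, where they can block replication and transcription, and specialised helicases unfold them. BAZ2B is a bromodomain protein of ISWI-type chromatin remodeling complexes, and the series' title places BAZ2 proteins in the suppression of G-quadruplexes. The 9 genes fall into several helicase families. DHX36 and DHX9 are DEAH-type and DDX5 is a DEAD-box RNA helicase. BLM and WRN are RecQ DNA helicases, BRIP1 and RTEL1 are iron-sulfur DNA helicases, and PIF1 gives its name to a family of its own. ATRX differs from the others in being a chromatin remodeler with a helicase-like ATPase domain, which binds G-rich repeats rather than being known for unwinding them.

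Promoter sequence was taken from RefSeq (build GRCh38.p14), whose windows run from 250 bases before to 50 bases after each listed start. These matched 7 of the 9 genes in 10 windows, with 3 windows for DDX5, 2 for RTEL1 and 1 each for DHX36, DHX9, BLM, BRIP1 and PIF1. WRN and ATRX were not matched. The windows were searched on both strands for the usual G-quadruplex motif, 4 runs of GGG or more separated by loops of 1 to 7 bases. The motif was found at 4 of the 7 genes, BRIP1, DHX9, RTEL1 and DDX5, against 27.9% of 27303 genes with a window, and in 4 of 10 windows, against 25.0% of 35114 windows. The exact 95% binomial intervals, 18.4 to 90.1% for 4 of 7 and 12.2 to 73.8% for 4 of 10, include both background shares. The second treats windows as independent, although DDX5 gave 3 and RTEL1 2, so it is only a guide. A match describes the letters only and does not show that the fold forms.

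The 250 bases before the start are shown for 3 genes whose window held the motif, for PIF1, which had a BAZ2B peak and no motif, and for DHX36, which had neither. They are printed along the gene's strand, and capitals mark the motif.
BRIP1: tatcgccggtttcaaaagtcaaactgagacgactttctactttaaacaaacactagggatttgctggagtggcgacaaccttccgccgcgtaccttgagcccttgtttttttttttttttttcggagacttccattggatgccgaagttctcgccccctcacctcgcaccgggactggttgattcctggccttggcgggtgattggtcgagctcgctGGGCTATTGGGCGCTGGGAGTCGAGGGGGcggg
DHX9: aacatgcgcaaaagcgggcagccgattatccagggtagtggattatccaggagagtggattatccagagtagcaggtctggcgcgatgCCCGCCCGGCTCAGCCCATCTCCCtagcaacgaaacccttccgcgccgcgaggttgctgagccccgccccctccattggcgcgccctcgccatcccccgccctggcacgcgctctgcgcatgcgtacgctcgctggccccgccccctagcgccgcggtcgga
RTEL1: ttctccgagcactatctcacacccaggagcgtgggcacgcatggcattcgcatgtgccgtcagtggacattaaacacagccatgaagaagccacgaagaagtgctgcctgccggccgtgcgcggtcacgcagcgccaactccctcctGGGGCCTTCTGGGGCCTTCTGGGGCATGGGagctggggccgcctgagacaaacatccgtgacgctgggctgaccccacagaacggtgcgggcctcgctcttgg
PIF1: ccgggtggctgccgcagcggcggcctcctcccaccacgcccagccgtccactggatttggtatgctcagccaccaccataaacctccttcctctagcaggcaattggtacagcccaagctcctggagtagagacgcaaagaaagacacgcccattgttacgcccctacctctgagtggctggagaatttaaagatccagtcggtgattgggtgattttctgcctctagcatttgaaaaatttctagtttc
DHX36: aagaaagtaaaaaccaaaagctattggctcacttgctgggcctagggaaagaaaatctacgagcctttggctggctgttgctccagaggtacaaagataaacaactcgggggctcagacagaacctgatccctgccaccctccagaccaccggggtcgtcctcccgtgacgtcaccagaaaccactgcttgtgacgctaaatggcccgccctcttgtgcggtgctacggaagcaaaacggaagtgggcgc
On GRCh38.p14 these are chr17:61863529-61863778 on the minus strand (BRIP1), chr1:182839097-182839346 on the plus strand (DHX9), chr20:63657560-63657809 on the plus strand (RTEL1), chr15:64825648-64825897 on the minus strand (PIF1) and chr3:154324488-154324737 on the minus strand (DHX36). The peak positions given further on are on hg19, and the builds were not converted into each other.

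In BRIP1 the motif lay on the gene's own strand, from 33 to 5 bases before the start. In RTEL1 it also lay on the gene's strand, from 103 to 74 bases before the first of its listed starts, with the loop CCTTCT repeated between its first 3 runs, each of GGGG. In DHX9 the runs were of C, so the G-rich strand is the opposite one, from 162 to 139 bases before the start. The DDX5 match was in the window of the most downstream of its 3 listed starts, 106 to 88 bases before it, and read GGGTGGGGGGATGGGAGGG on the gene's strand. The windows of DHX36, BLM and PIF1, the second of RTEL1 and the other 2 of DDX5 held no match.

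The windows lay around or above the middle of all windows in base composition. GC content ran from 54.7% in PIF1 to 66.3% in the second RTEL1 window, and exceeded the median of all windows, 58.7%, in 7 of 10. The number of CG dinucleotides ran from 14 in PIF1, the median of all windows, to 32 in DHX9, which exceeded 81.1% of windows, and 9 of 10 windows were above the median. DHX36 had 16 and BRIP1 22.

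All 9 promoters carried an H3K4me3 peak in the tagged cells, 6 carried an HA-BAZ2B peak and 3 a WT peak. The share of all promoters with an H3K4me3 peak could not be computed, so the count of 9 has no background beside it. The HA-BAZ2B peaks were at DHX9, DDX5, WRN, BRIP1, RTEL1 and PIF1, while DHX36, BLM and ATRX had none. For 6 of 9 the exact 95% binomial (Clopper-Pearson) interval is 29.9 to 92.5%, and 40.2% of the 17018 H3K4me3 peaks on assembled chromosomes had an HA-BAZ2B peak within 2 kb of their summit (39.5% had one overlapping them by 1 bp). The WT peaks were at DHX9, DDX5 and BRIP1, each of which also had an HA-BAZ2B peak. For 3 of 9 the interval is 7.5 to 70.1%, against 13.5% of all H3K4me3 peaks with a WT peak near their summit (13.1% by overlap). Both intervals include the share of the whole list, so the number of promoters with an anti-HA peak among these 9 genes was not distinguishable from that of H3K4me3 peaks in general. The intervals cover counting error only, and since 1 list was deposited per group there is no replicate error and no test across replicates. With every list limited to the 2389 peaks of highest −log10 q, the length of the WT list, 2 promoters kept an H3K4me3 peak (DHX9 and BRIP1), 4 an HA-BAZ2B peak (DHX9, WRN, BRIP1 and DDX5) and the same 3 a WT peak. Of the 2389 H3K4me3 peaks kept, 55.0% overlapped an HA-BAZ2B peak and 28.9% a WT peak. Among the 9 promoters only DHX9 and BRIP1 belong to this base, and both kept both anti-HA peaks. The counts of 4 and 3 out of 9 promoters are therefore not comparable with these shares.

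As listed, the promoters fell into 3 sets of 3. DHX9, DDX5 and BRIP1 had both anti-HA peaks, a state seen at 11.6% of all H3K4me3 peaks. WRN, RTEL1 and PIF1 had an HA-BAZ2B and no WT peak, as did 28.6% of all, but RTEL1 and PIF1 lost theirs in the shortened lists, which left WRN. DHX36, BLM and ATRX had neither, as did 57.9% of all.

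**Figure D1:**
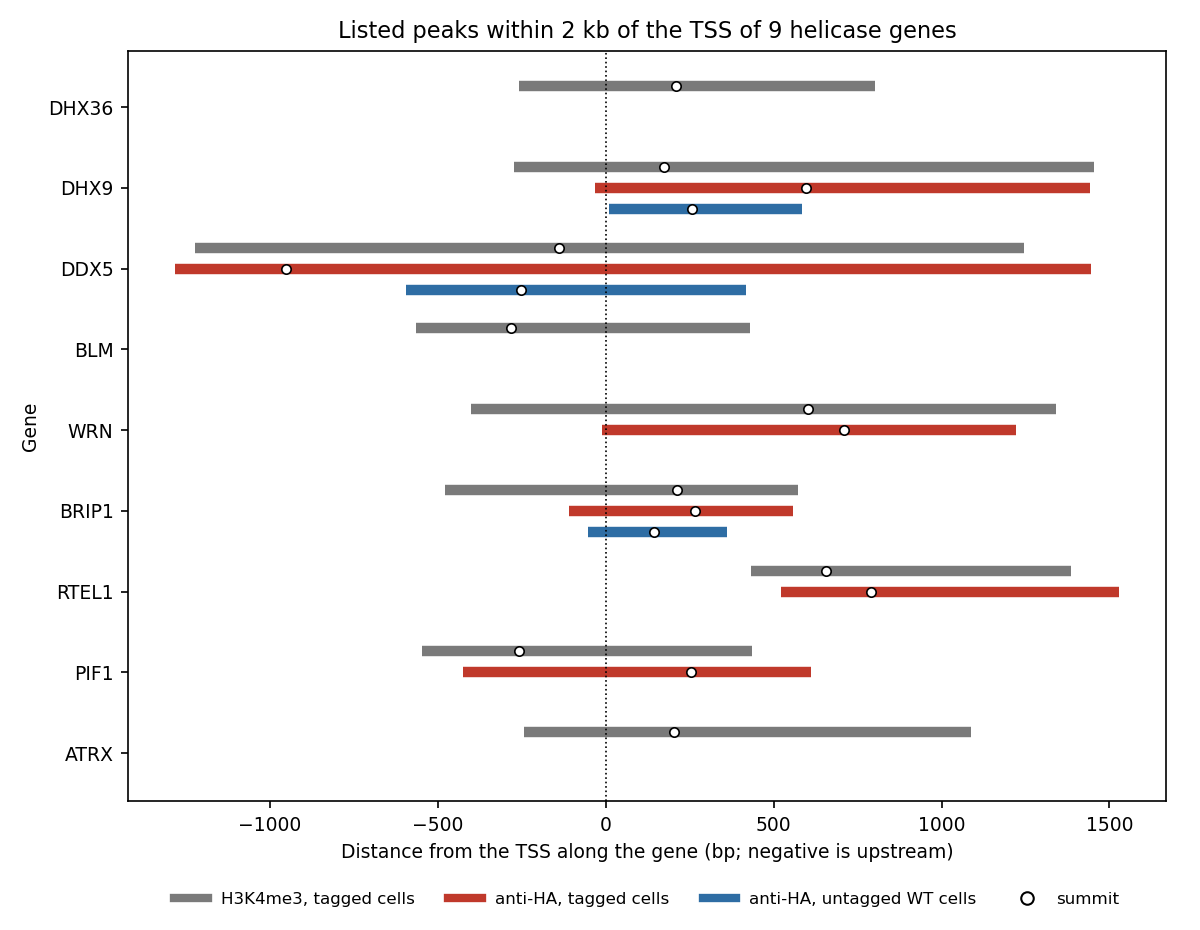
Extent of each listed peak (bars) and its summit (white circles) in bp from the TSS along the gene, for the H3K4me3 list (grey), the anti-HA list of tagged cells (red) and the anti-HA list of untagged WT cells (blue). Red bars are present at 6 genes and blue bars at 3, and at RTEL1 both bars start downstream of the TSS.

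The values that follow are those of the authors' peak caller. Fold enrichment is the signal at the summit over the caller's background estimate for that library, and −log10 q is its significance, higher for surer peaks. Neither is scaled between lists, so each peak is placed by its rank in its own list.

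DHX36 (chromosome 3, TSS 154042286, minus strand) encodes the helicase best known for tight binding of G-quadruplexes in DNA and RNA. Its H3K4me3 peak (154041483 to 154042543) was 1061 bp wide with a fold enrichment of 12.2, higher than 84.5% of the list, and a −log10 q of 46.1. The summit lay 208 bp downstream of the TSS. No anti-HA peak of either line was listed there. The nearest HA-BAZ2B peak lay 1161 kb from the H3K4me3 summit and the nearest WT peak 3560 kb. Among all H3K4me3 peaks without a nearby HA-BAZ2B peak, 96.2% were closer to one than DHX36.

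DHX9 (chromosome 1, TSS 182808439, plus strand) encodes an RNA helicase that also resolves RNA-DNA hybrids and G-quadruplexes. Its H3K4me3 peak (182808167 to 182809893) was 1727 bp wide, with a fold enrichment of 8.90 and a −log10 q of 67.5, higher than 87.3% of the list. The HA-BAZ2B peak (182808408 to 182809880) had a fold enrichment of 9.25 and a −log10 q of 43.2, higher than 85.2% of its list. It began 31 bp upstream of the TSS, ran 1441 bp downstream and lay wholly inside the H3K4me3 peak. The WT peak (182808449 to 182809023) was 575 bp wide with a fold enrichment of 6.81, and its −log10 q of 8.85 was below the WT list's median of 10.4. RefSeq lists the antisense transcript DHX9-AS1 as starting 244 bp downstream of DHX9, and CUT&Tag does not tell the strands apart. The H3K4me3 and WT summits were 84 bp apart, at 172 and 256 bp downstream of the TSS, while the HA-BAZ2B summit lay at 595 bp.

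DDX5 (chromosome 17, TSS 62502484, minus strand) encodes an abundant RNA helicase that can unfold G-quadruplexes and acts in splicing and transcription. It had the broadest peak of the 9 genes in every list that held one. The H3K4me3 peak (62501239 to 62503707) was 2469 bp wide, wider than 98.7% of its list, with a fold enrichment of 5.36 that exceeded only 9.8%. The HA-BAZ2B peak (62501039 to 62503766) showed the same form, 2728 bp wide, above 99.3% of its list, with a fold enrichment of 4.71 that exceeded 6.3%. The WT peak (62502067 to 62503079) was 1013 bp wide, and its −log10 q of 23.8 was higher than 89.1% of the WT list. The RefSeq promoter table lists CEP95 as starting on the opposite strand 339 bp upstream of the first listed DDX5 start. Reads at this site therefore cannot be assigned to 1 of the 2 genes. The HA-BAZ2B summit lay 951 bp upstream of the DDX5 TSS, on the side of CEP95, and the H3K4me3 and WT summits 139 and 251 bp upstream.

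BLM (chromosome 15, TSS 91260579, plus strand), the RecQ helicase lost in Bloom syndrome, dissolves recombination intermediates and unwinds G-quadruplexes. Its H3K4me3 peak (91260014 to 91261009) was 996 bp wide with a fold enrichment of 10.3 and a −log10 q of 43.6, near the middle of the list (higher than 52.6%). The summit lay 283 bp upstream of the TSS, where the RefSeq table has the antisense transcript CRTC3-AS1 starting 206 bp upstream of BLM. No anti-HA peak was listed, and the nearest lay at 185 kb for HA-BAZ2B and 483 kb for WT.

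WRN (chromosome 8, TSS 30890778, plus strand), the RecQ helicase lost in Werner syndrome, acts in replication and at telomeres. Its H3K4me3 peak (30890377 to 30892119) was 1743 bp wide with a fold enrichment of 10.03 and a −log10 q of 60.9. The HA-BAZ2B peak (30890768 to 30892000) had a fold enrichment of 10.1 and a −log10 q of 45.8, higher than 89.0% of its list. It covered 70.7% of the H3K4me3 peak, from 10 bp upstream of the TSS downstream, and the summits were 107 bp apart. No WT peak was listed, and the nearest was 950.4 kb away.

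BRIP1 (chromosome 17, TSS 59940920, minus strand), also called FANCJ, is a BRCA1 partner that unwinds G-quadruplexes during replication. It had the highest fold enrichment of the 9 genes in each of the 3 lists. The H3K4me3 peak (59940349 to 59941398) reached 14.2, higher than 95.3% of its list, with a −log10 q of 67.97. The HA-BAZ2B peak (59940362 to 59941030) reached 15.2, rank 51 of 6794, with a −log10 q of 51.1. At 669 bp it was also the narrowest of the 6 HA-BAZ2B peaks. The WT peak (59940559 to 59940974) reached 8.96, higher than 90.1% of the WT list, while its −log10 q of 11.7 was higher than 58.1% and its width of 416 bp than 19.3%. The summits lay 145 to 267 bp downstream of the TSS.

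RTEL1 (chromosome 20, TSS 62289163, plus strand) encodes the helicase that opens telomeric loops and G-quadruplexes at telomeres. It is the 1 gene of the 9 whose TSS no peak covered. Its H3K4me3 peak (62289594 to 62290548) began 431 bp downstream of the TSS and its HA-BAZ2B peak (62289685 to 62290691) 522 bp downstream. RefSeq lists a further RTEL1 start 502 bp downstream of the first, on its own build. Fold enrichment was 10.6 for H3K4me3 and 10.01 for HA-BAZ2B, with −log10 q values of 46.3 and 27.4, and there was no WT peak. Of all peaks assigned to the 9 genes this HA-BAZ2B peak had its nearest edge farthest from the TSS, still within the 2 kb limit. The nearest peak outside the limit was an H3K4me3 peak 4.46 kb upstream of RTEL1. A second, weak HA-BAZ2B peak (62313997 to 62314383) lay 24.9 kb downstream without an H3K4me3 peak, with a fold enrichment of 3.96 and a −log10 q of 2.74.

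PIF1 (chromosome 15, TSS 65117867, minus strand) encodes a replication-associated helicase with strong activity on G-quadruplexes. Its H3K4me3 peak (65117431 to 65118413) had a fold enrichment of 12.9, higher than 89.1% of the list, but a −log10 q of 37.0, higher than only 42.6%. The HA-BAZ2B peak (65117255 to 65118293) reached a fold enrichment of 10.4, and its −log10 q of 21.8 was the lowest of the 6. The H3K4me3 summit lay 259 bp upstream of the TSS and the HA-BAZ2B summit 253 bp downstream, 512 bp apart. No WT peak was listed at PIF1, although all 3 lists held a peak about 15.9 kb upstream of it.

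ATRX (chromosome X, TSS 77041719, minus strand) encodes the remodeler that acts with DAXX at G-rich repeats and telomeres. Its H3K4me3 peak (77040630 to 77041963) was 1334 bp wide with a fold enrichment of 10.4 and a −log10 q of 37.2. No anti-HA peak was listed. The nearest HA-BAZ2B peak lay 1672 kb away, farther than for 98.1% of H3K4me3 peaks without one, while a WT peak lay 113 kb away.

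The presence of an HA-BAZ2B peak at these genes went with the rank of the H3K4me3 peak only in part. The 4 promoters with the highest H3K4me3 −log10 q, BRIP1 (67.97), DHX9 (67.5), WRN (60.9) and DDX5 (59.1), all had one. Below these the sets overlapped: RTEL1 (46.3) and PIF1 (37.0) had a peak, and DHX36 (46.1), BLM (43.6) and ATRX (37.2) did not. RTEL1 and DHX36 differed by little in this measure, as did PIF1 and ATRX. Fold enrichment of H3K4me3 overlapped throughout, from 5.36 to 14.2 with and from 10.3 to 12.2 without an HA-BAZ2B peak.

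**Figure D2:**
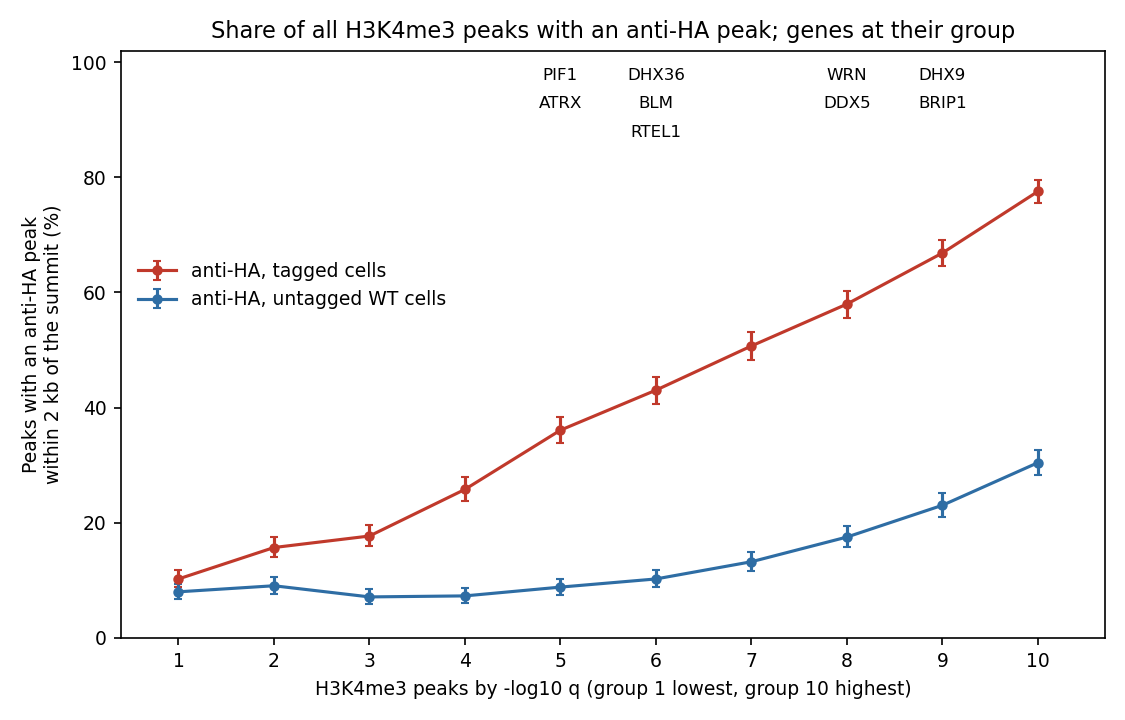
Percentage of all H3K4me3 peaks with an anti-HA peak within 2 kb of the summit (red, tagged cells; blue, untagged WT cells; bars are exact 95% binomial intervals), in 10 groups of nearly equal size by H3K4me3 −log10 q, with the 9 genes written above their group. The genes lie in groups 5, 6, 8 and 9, where the red share rises from 36.1 to 66.9%.

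Over the whole H3K4me3 list the share with an HA-BAZ2B peak climbed with −log10 q. Of PIF1 and ATRX in group 5, where 36.1% of peaks had an HA-BAZ2B peak (33.8 to 38.4%), 1 had it. Of DHX36, BLM and RTEL1 in group 6, with 43.0% (40.7 to 45.4%), again 1 had it. WRN and DDX5 in group 8, with 58.0% (55.6 to 60.3%), both had it, as did DHX9 and BRIP1 in group 9, with 66.9% (64.6 to 69.1%). The WT share in these groups was 8.81, 10.2, 17.5 and 23.0%, and the 3 WT peaks were in groups 8 and 9.

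**Figure D3:**
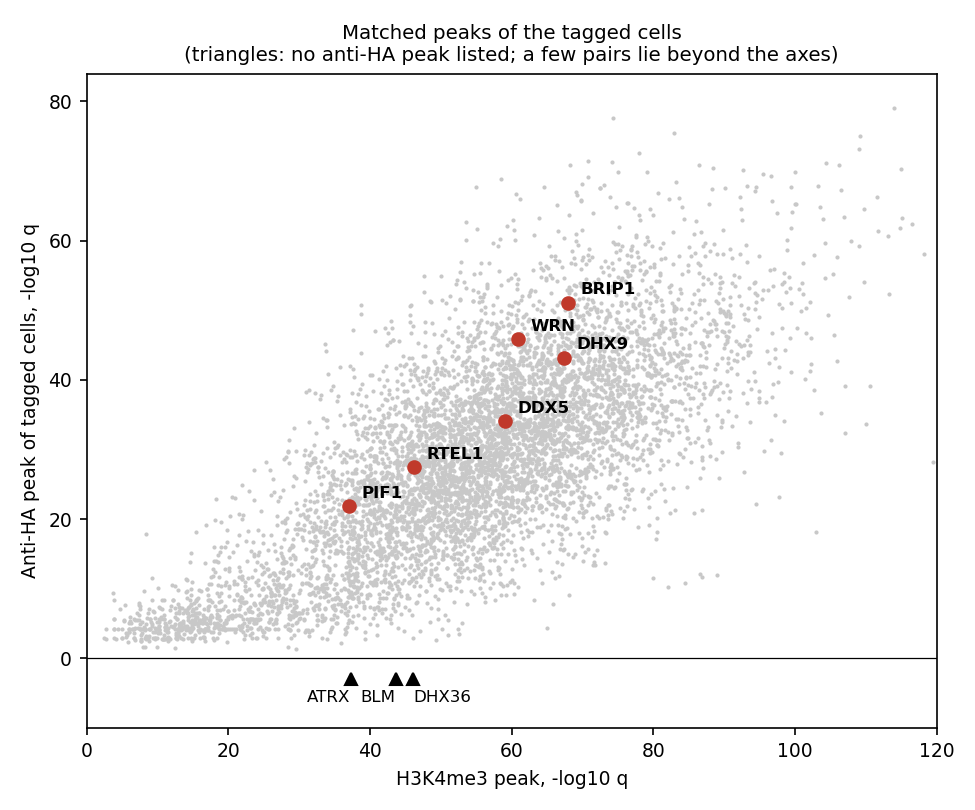
−log10 q of the anti-HA peak of tagged cells against that of the H3K4me3 peak it matches one to one (grey, 6556 pairs, a few of which lie beyond the axes), with 6 genes in red. Triangles below 0 mark the H3K4me3 value of the 3 genes without an HA-BAZ2B peak, which lie between 37.2 and 46.1.

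The 6 promoters with a listed HA-BAZ2B peak were compared with matched pairs of HA-BAZ2B and H3K4me3 peaks in the same H3K4me3 group. In all 6 the HA-BAZ2B −log10 q was above the group's median. BRIP1 exceeded 93.8% of its group, whose median was 34.6, and WRN 91.0% of its group, with a median of 31.5. DHX9 exceeded 80.0%, RTEL1 60.9%, DDX5 60.5% and PIF1 58.3%. The last 3 lay inside the interquartile range of their groups, and DHX9 just above it. The place of a promoter's H3K4me3 value within the range of its group was not adjusted for. DHX36, BLM and ATRX had no listed HA-BAZ2B peak and so did not enter this comparison. BRIP1, DHX9 and DDX5 also had a WT peak, which the ranking did not take into account.

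**Figure D4:**
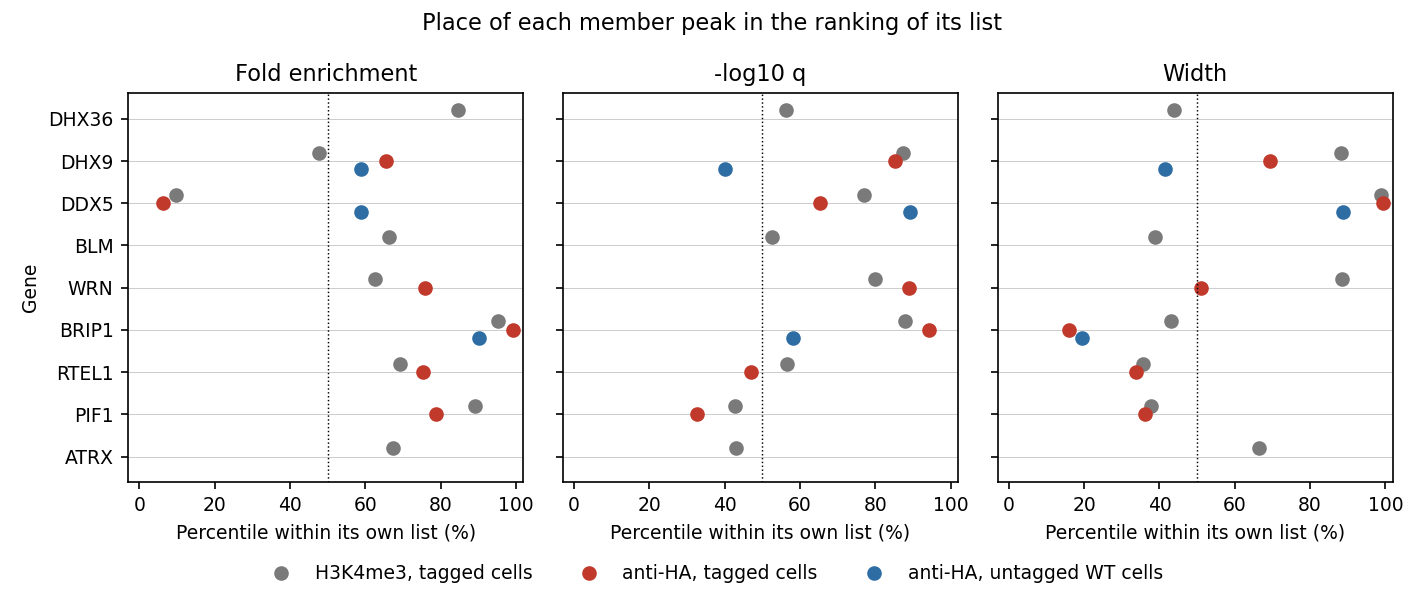
Percentage of peaks in the same list that a gene's peak exceeds in fold enrichment, −log10 q and width (grey, H3K4me3; red, anti-HA in tagged cells; blue, anti-HA in untagged WT cells; dotted line, the list's median). The DDX5 peaks are high in width in all 3 lists and low in fold enrichment for H3K4me3 and HA-BAZ2B but not WT (58.8%), and the BRIP1 peaks are high in fold enrichment and below the median in width.

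Width and summit position relative to H3K4me3 varied among the 6 promoters with an HA-BAZ2B peak. The HA-BAZ2B peak was 0.637 times as wide as the H3K4me3 peak at BRIP1, 0.707 at WRN and 0.853 at DHX9, and 1.05 at RTEL1, 1.06 at PIF1 and 1.10 at DDX5. Over 6556 matched pairs the median was 0.918, with an interquartile range of 0.793 to 1.01, so BRIP1 and WRN lay below this range and the last 3 above it. The summits were 55 bp apart at BRIP1, 107 at WRN and 132 at RTEL1, but 423 at DHX9, 512 at PIF1 and 812 at DDX5. The latter 3 exceeded the upper quartile of all pairs, 275 bp, where the median was 84 bp. WT peaks were 0.333, 0.396 and 0.410 times as wide as the H3K4me3 peak at DHX9, BRIP1 and DDX5. Over 2210 pairs the median was 0.501, with an interquartile range of 0.364 to 0.663, so only DHX9 lay below this range. All 3 WT peaks lay wholly inside both the H3K4me3 and the HA-BAZ2B peak. At these 3 genes the WT summit lay closer to the H3K4me3 summit (84, 67 and 112 bp) than to the HA-BAZ2B summit (339, 122 and 700 bp). Over all matched pairs the median gaps were 78 bp and 175 bp.

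The surroundings of the 9 genes ranged from sparse to dense in H3K4me3 peaks. Within 500 kb, DHX36 had 2 other H3K4me3 peaks, BRIP1 4, DHX9 and ATRX 6 each, WRN 7, DDX5 12, BLM and PIF1 16 each and RTEL1 25, and the median of all H3K4me3 peaks was 9. Over the whole list 39.5% of H3K4me3 peaks overlapped an HA-BAZ2B peak. None of the neighbours of DHX36 or ATRX carried one. Around BLM 7 of 16 did, a share near that of the whole list. Of the other neighbours, 3 of 4 carried one around BRIP1, 7 of 12 around DDX5, 3 of 7 around WRN, 10 of 25 around RTEL1, 6 of 16 around PIF1 and 1 of 6 around DHX9. WT peaks were rarer, at most 3 of the neighbours of any gene (RTEL1 and PIF1), and none of the neighbours of BRIP1 and DHX9 had one although these promoters did.

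**Figure D5:**
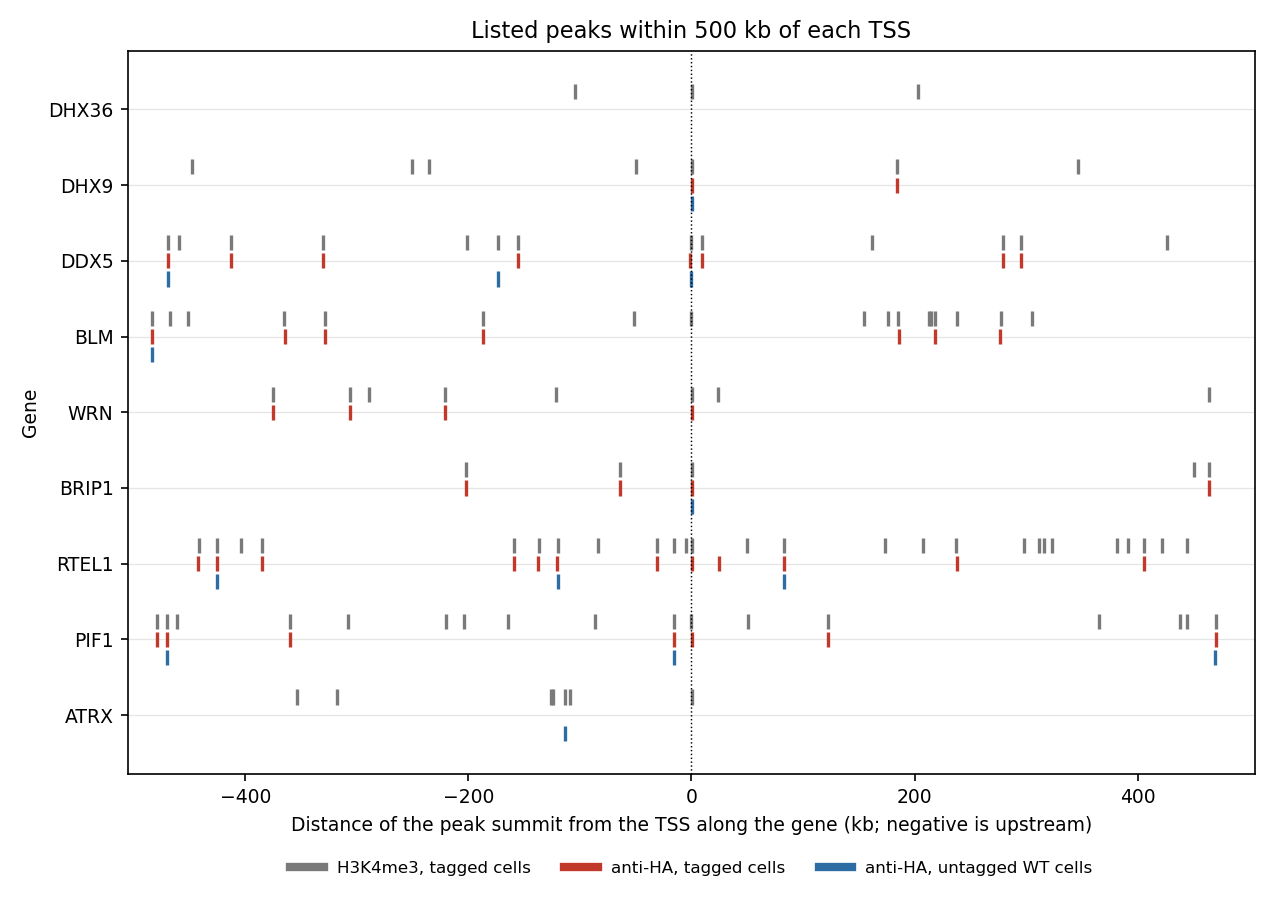
Summits of all listed peaks within 500 kb of each TSS, in kb along the gene (grey, H3K4me3; red, anti-HA in tagged cells; blue, anti-HA in untagged WT cells). No red mark appears around DHX36 and ATRX, and around BLM they lie on both sides of the promoter but not at it.

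An unlisted peak is not an absent one, because the authors kept only peaks found in at least 2 replicates. Peak names carry the caller's running number, which rises through each file, so gaps in the numbers count the peaks of the source library that were dropped. Between the listed HA-BAZ2B peaks on either side of BLM, 371 kb apart, 5 peaks had been dropped, around DHX36 7 in 2642 kb and around ATRX 18 in 8888 kb. The WT library had dropped 2 peaks in the 203 kb around RTEL1, 4 in the 485 kb around PIF1 and 9 in the 3430 kb around WRN. The positions of the dropped peaks are unknown, so none of the 6 promoters without a WT peak, and none of the 3 without an HA-BAZ2B peak, was shown to be free of signal in the source library.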

How the data were processed

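CUT&Tag libraries of A549 cells (3 per group) were assigned to groups by their titles; for replicates 2 and 3 of H3K4me3 the last digit of the antibody label reads 4 and 5, and the titles were followed. Bowtie2 2.4.5, MACS2 2.1.4, Picard, SAMtools 1.15.1, bedtools and the builds hg19 and dm6 are named per the submitters' processing notes, without settings. Per the labels, peaks present in at least 2 replicates were kept, with rows from the largest replicate file. Per the peak names in the files these are replicate 3 (HA-BAZ2B), 2 (WT) and 1 (H3K4me3). The authors deposited for each peak a fold enrichment ratio, −log10 p and q values, a start and end, and a summit offset. Depth is unknown, as the lists hold no reads. Peaks on assembled chromosomes were used (17018, 6794 and 2389). The TSS positions came with the choice of genes. The background is the share of H3K4me3 peaks with an anti-HA peak within 2 kb of the summit. One-to-one pairs overlapped by at least 1 bp. Strands came from RefSeq, and for WRN and ATRX from general knowledge. All 9 genes are named, and they and the lists were chosen with earlier results of these data known. Further G-quadruplex genes and cell type markers were not analysed, since no hg19 gene positions beyond the 9 given TSS were used here. No test was made, and overlap and motif searches were checked on simulated data. Alternatives varied the window, threshold, list length, overlap, ranking measure and motif. Scripts ran on Python 3.11.15 with scipy 1.17.1, pandas 2.3.3, numpy 2.4.6 and, for plots, matplotlib 3.10.9.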

Additional observations from a re-analysis of the deposited data

How the results depend on the processing

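The 6 HA-BAZ2B and 3 WT promoters were the same with a window of 1 or 5 kb, with the summit within 2 kb and with a −log10 q of at least 5. Requiring the peak to cover the TSS removed RTEL1 from the H3K4me3 and HA-BAZ2B counts (8 and 5) and DHX9 from the WT count (2). A −log10 q of at least 10 also left 2 WT promoters. The share over all H3K4me3 peaks was not recomputed for other windows, for TSS coverage or for this last limit. With each list limited to its 2389 peaks of highest −log10 q, 2 promoters kept an H3K4me3 peak (DHX9 and BRIP1), 4 an HA-BAZ2B peak and 3 a WT peak. The share of H3K4me3 peaks overlapping an HA-BAZ2B peak by 1 bp, 39.5%, was then 55.0%, and that overlapping a WT peak, 13.1%, was 28.9%; at a −log10 q of at least 5 they were 38.7 and 11.8%. Ranking by −log10 q or width in place of fold enrichment moved all 36 ranks compared. Runs of GG in place of GGG put the motif at 7 genes, in each of their windows, and in 81.5% of all windows. Loops of up to 12 bases gave the same 4 genes, with a match also in the second RTEL1 window, and 37.8% of all windows. Both shares are by window. The share by gene was not recomputed for these settings, so the counts of genes have no background beside them. No paired analysis was possible because the files hold 1 list per group, and leaving out replicates was not run for the same reason.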
